A study of Homo sapiens with 6 samples.

Results

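The genes described here are 35 genes of protein folding, degradation and stress signalling in the endoplasmic reticulum (ER), chosen by symbol from the literature of the pathway. All 35 were among the 29483 genes of the table, and all 35 passed the filter on low values that left 13599 genes for testing. The libraries, 3 control and 3 case, were made from HK-2, a human cell line derived from the epithelium of the renal proximal tubule. High glucose medium (HG, 25 mM D-glucose) was given to both groups for 7 days. Cells of the case group were then given 10 μM TEPP-46, an activator of the glycolytic enzyme PKM2, for 1 day in HG, and the control group went without it. No vehicle is named for the control group and no group in normal glucose was analysed here, so every comparison is of TEPP-46 on an HG background. The replicates are described as independent and as treated separately, all from 1 cell line. Library sizes read from the FPKM steps (reads per gene divided by gene length and library size) lay between 17378710 and 18634891 reads for the control libraries and between 15363254 and 16711934 for the case libraries. The 35 genes had between 59 and 14472 reads per library.

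The ER folds secreted and membrane proteins with chaperones, disulfide isomerases and their helpers, and it sends proteins that fail to fold back to the cytosol for degradation (ERAD). When unfolded proteins accumulate, the sensors ATF6, IRE1 (*ERN1*) and PERK (*EIF2AK3*) start the unfolded protein response. ATF6 and the spliced form of *XBP1* raise transcription of chaperone and ERAD genes, while PERK phosphorylates eIF2 and thereby raises ATF4 and CHOP (*DDIT3*). Other kinases also phosphorylate eIF2, so ATF4 and CHOP can rise without the other branches. The comparison asks whether the chaperone and ERAD genes changed in the libraries in which CHOP was higher. The table gives 1 value per gene, so the spliced form of *XBP1* cannot be told apart from the unspliced form.

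Some promoters of this group carry known stress elements, and stretches with them are shown because the chaperone branch is defined by these elements. Promoter windows of RefSeq (GRCh38.p14), from 250 bases before to 50 bases after the start site, were found for 31 of the 35 genes. They were searched on both strands for the ER stress element (ERSE: CCAAT and CCACG with 9 bases between), for ERSE-II (ATTGG and CCACG with 1 base between) and for the unfolded protein response element (UPRE: TGACGTGG). The 3 patterns can share letters, since each holds CCACG or its complement. At least 1 of them was present in 12 (38.7%) of the 31 genes, against 1.08% of the 27305 genes with a window. The genes were chosen from the literature of the pathway, so this excess is not independent evidence. ERSE was present in 8 of the 31 (25.8%, against 0.0916%), ERSE-II in 3 (9.68%, against 0.0696%) and UPRE in 2 (6.45%, against 0.927%). The C/EBP-ATF response element, to which ATF4 binds (CARE: TGATG and AA with 1 base between) was also searched for, and was present in 2 of the 31, *CREB3L2* and *HERPUD1* (6.45%, against 4.46%). The stretches below hold the matches in capitals with 20 bases on each side, 5′ to 3′ on the strand of the gene, for 2 abundant chaperones (*HSPA5*, *HSP90B1*), for *XBP1*, and for the 3 genes with ERSE-II.
HSPA5, chr9:125241371-125241429, minus strand: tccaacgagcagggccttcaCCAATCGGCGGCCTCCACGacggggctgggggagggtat
HSP90B1, chr12:103930196-103930359, plus strand: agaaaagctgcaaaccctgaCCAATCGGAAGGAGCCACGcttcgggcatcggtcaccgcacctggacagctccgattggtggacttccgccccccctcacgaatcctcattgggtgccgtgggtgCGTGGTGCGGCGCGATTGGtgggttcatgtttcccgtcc
XBP1, chr22:28800583-28800641, minus strand: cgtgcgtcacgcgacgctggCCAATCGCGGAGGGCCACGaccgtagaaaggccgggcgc
HERPUD1, chr16:56932005-56932055, plus strand: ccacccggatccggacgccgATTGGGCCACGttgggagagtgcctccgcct
SDF2L1, chr22:21642094-21642144, plus strand: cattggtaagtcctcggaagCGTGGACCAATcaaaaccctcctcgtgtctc
HYOU1, chr11:119057254-119057413, minus strand: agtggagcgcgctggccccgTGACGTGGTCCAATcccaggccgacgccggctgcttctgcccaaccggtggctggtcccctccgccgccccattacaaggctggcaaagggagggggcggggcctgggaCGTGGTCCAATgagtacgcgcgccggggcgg

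Of these genes, *HYOU1* held ERSE-II at 185 to 175 and at 79 to 69 bases before the start, the first of them overlapping its UPRE. *HSP90B1* held 2 ERSE matches, and *HSPA5* and *XBP1* held 1 each at 66 to 48 and 52 to 34 bases before the start. ERSE was also found in *CALR*, *CANX*, *CRELD2*, *ERO1B* and *PDIA6*, and UPRE in *DNAJC10*. A match is a run of letters and not a measured binding site.

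After TEPP-46, *XBP1*, *ERP44* and *DERL1* rose and *CREB3L2* and *SEC24D* fell, and the other 30 genes did not pass the test. A gene was called at an adjusted p of at most 0.05 in limma over all tested genes. The 3 higher and 2 lower genes stand beside 7.34% of all tested genes called higher and 5.84% called lower, so the share of the group was near that of all genes. The median log2 fold change (case minus control) was 0.10 over the 35 genes and -0.00 over all tested genes, and 25 of the 35 values were above 0. With TPM, which lowers the median of all tested genes to -0.19, the median of the 35 was -0.09 and 1 gene was called higher and 5 lower, against 2.82% and 17.6% of all tested genes. At least 1 alternative changed the sign of 19 of the 35 genes, none of them among the 5 called. The case and control values did not overlap in 12 higher and 6 lower genes of the 35, against 19.5% and 20.4% of all tested genes. With TPM these counts were 2 and 8, against 7.38% and 37.5%. No call held whichever library was left out. Without control replicate 1, 2 or 3 or without case replicate 3 no gene of the group was called, where 0.412% to 0.838% of all tested genes were called higher and 0.118% to 0.5% lower. Without case replicate 1 there were 6 higher and 2 lower, against 9.02% and 8.04% of all tested genes. Without case replicate 2 there were 6 and 4, against 13.3% and 12.3%. At an unadjusted p under 0.05, 9 genes were higher and 5 lower with all libraries, against 16.8% and 16.2% of all tested genes. Between 3 and 6 were higher and 4 or 5 lower when a control replicate or case replicate 3 was left out, against 11.8% to 12.9% and 10.5% to 12.1% of all tested genes. In bulk RNA, a change in the number of cells and a change in RNA per cell cannot be told apart.

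**Figure D1:**
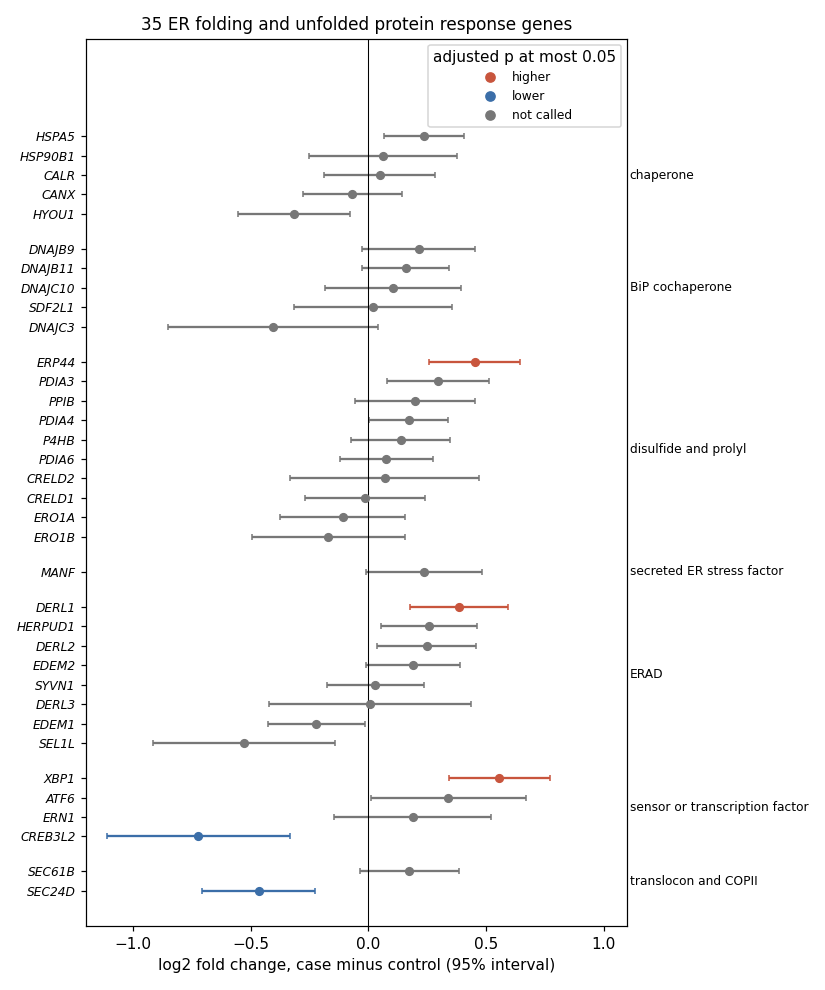
Log2 fold change (case minus control, x axis) of the 35 genes, ordered by role, with points for the estimate and bars for its 95% interval from limma. Red and blue points are the 3 genes called higher and the 2 called lower. The other 30 are grey.

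Of the 5 chaperones, *CALR*, *HSPA5*, *HSP90B1* and *CANX* were more abundant than most of the group. None of the 5 was called by limma at the scaling used here or by voom on recovered reads, and at an unadjusted p under 0.05 *HSPA5* was higher and *HYOU1* lower. *HSPA5* (ENSG00000044574, chromosome 9, 125234853 to 125241382) encodes BiP, the HSP70 chaperone of the ER and the usual marker of ER stress. Its FPKM after scaling of the libraries (scaled FPKM) was 191.5, 198.0 and 192.3 in control replicates 1, 2 and 3 and 215.7, 229.6 and 240.3 in case replicates 1, 2 and 3. Every case library was above every control library, by a mean of 1.18-fold. This is a log2 fold change of 0.24 (95% interval 0.06 to 0.41, adjusted p = 0.0702). It was called without case replicate 1 (adjusted p = 0.0276), and its log2 fold change was -0.002 with quantile normalization.

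*HSP90B1* encodes GRP94, the HSP90 chaperone of the ER. Its scaled FPKM was 101.5, 104.7 and 99.9 in the control group and 86.3, 108.4 and 129.1 in the case group. The case values lay on either side of the control values, and the log2 fold change was 0.06 (95% interval -0.25 to 0.38, adjusted p = 0.783). *CALR*, the lectin chaperone calreticulin, had the highest mean level of the 35 genes. It was at 266.1, 263.2 and 254.8 in the control group and 314.1, 252.8 and 248.4 in the case group, with only case replicate 1 above the control values (log2 fold change 0.05, adjusted p = 0.778). Its membrane-bound relative *CANX* had overlapping values, with means of 91.8 ± 3.48 in the control and 87.8 ± 8.94 in the case libraries (SD, n = 3). *HYOU1* encodes GRP170, a nucleotide exchange factor for BiP. It was at 38.3, 38.2 and 37.2 in the control group and 32.9, 32.8 and 25.99 in the case group, lower in every case library and opposite in sign to *HSPA5*. For *HYOU1* the log2 fold change was -0.32 (95% interval -0.56 to -0.08, adjusted p = 0.0792). *HYOU1* was called lower with FPKM as deposited (adjusted p = 0.0426), with TPM (0.02), with quantile normalization (0.0378) and without case replicate 2 (0.0466). Without case replicate 3 its log2 fold change was -0.204 (adjusted p = 0.156).

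The 5 cochaperones of BiP were not called either, by limma or by voom, and none had an unadjusted p under 0.05. *DNAJB9*, a J-domain protein that holds IRE1 inactive and is a common target of spliced XBP1, was at 4.61, 5.19 and 5.00 in the control group and 5.46, 6.40 and 5.37 in the case group. The groups of *DNAJB9* did not overlap, and its log2 fold change was 0.21 (95% interval -0.03 to 0.45, adjusted p = 0.191). *DNAJB11* had a log2 fold change of 0.16 without overlap (adjusted p = 0.205), and *DNAJC10*, a disulfide reductase with a J domain, overlapped (log2 fold change 0.10). *SDF2L1* is among the genes that respond most readily to ER stress in many cells. It was at 57.7, 50.5 and 60.6 in the control group and 71.0, 48.2 and 53.7 in the case group, a log2 fold change of 0.02 (95% interval -0.32 to 0.35, adjusted p = 0.943). The highest and the lowest of its 6 values were both case libraries. *DNAJC3* encodes a cochaperone also known as an inhibitor of PERK and PKR. It was at 5.20, 5.19 and 5.24 in the control group and 2.75, 4.64 and 4.69 in the case group, with a log2 fold change of -0.41 (adjusted p = 0.184). Without case replicate 1, the lowest library, it was -0.155.

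**Figure D2:**
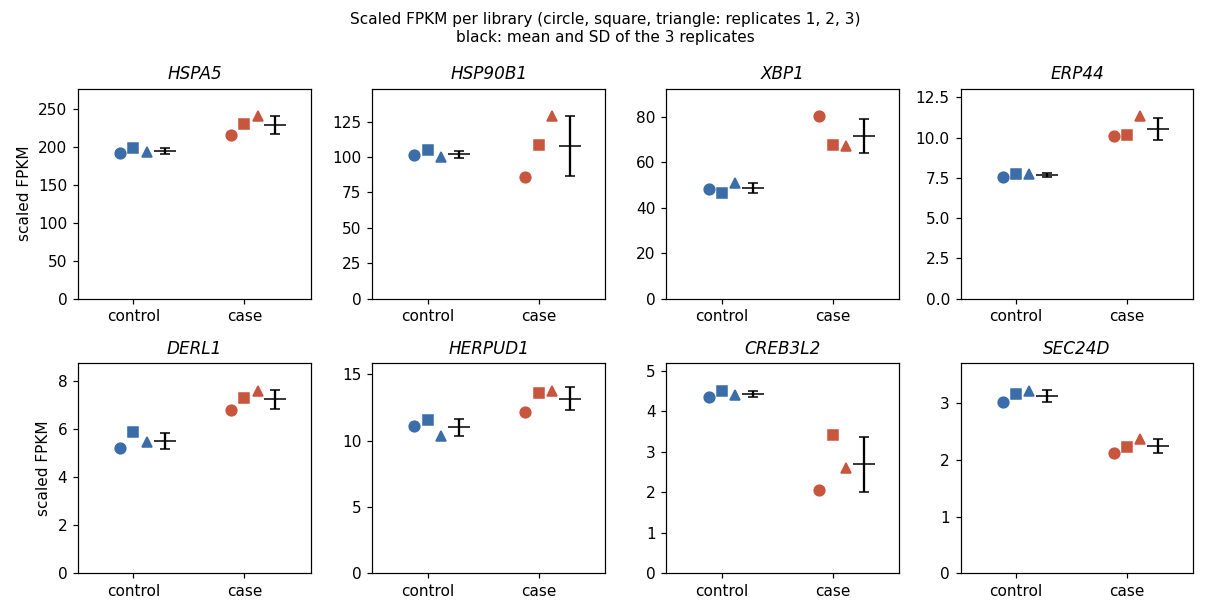
Scaled FPKM (y axis, from 0) of 8 genes in each library, with circles, squares and triangles for replicates 1, 2 and 3 and black bars for the mean and SD of a group. The case values of *XBP1*, *ERP44* and *DERL1* lie above all control values and those of *CREB3L2* and *SEC24D* below them, while *HSP90B1* spreads on either side.

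Among the 10 genes of disulfide formation, proline isomerization and related folding, *ERP44* was called and 7 log2 fold changes were above 0. Voom called *PDIA3* as well. *ERP44* (ENSG00000023318, chromosome 9, 99979185 to 100099052) encodes a thioredoxin-family protein that returns unassembled proteins and ERO1 from the Golgi to the ER. Its scaled FPKM was 7.54, 7.75 and 7.74 in the control group and 10.1, 10.2 and 11.4 in the case group. The SD of the control values was 0.120 and every case value was above them, by 0.45 on the log2 scale (standard error 0.08, adjusted p = 0.0189, rank 464 by p). With TPM the change was 0.25 and not called (adjusted p = 0.0842), and over all alternatives the adjusted p of *ERP44* reached 0.0941.

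*PDIA3*, the isomerase that works with calreticulin and calnexin, was at 56.7, 62.7 and 58.9 in the control group and 69.5, 68.0 and 82.0 in the case group. All case values of *PDIA3* were higher, by 0.30 on the log2 scale (95% interval 0.08 to 0.51, adjusted p = 0.0715). *PDIA3* was called higher by voom (adjusted p = 0.0368) and without case replicate 2 (0.0382), and with TPM its log2 fold change was 0.096 (adjusted p = 0.471). The table also holds *PDIA3P1*, a pseudogene of *PDIA3*, at a mean scaled FPKM of 10.2, so reads could be shared between them. *PDIA4* did not overlap, at 114.7 ± 1.58 against 129.3 ± 6.91 (SD, n = 3), and was not called (adjusted p = 0.144). *P4HB*, the classical protein disulfide isomerase, was one of the most abundant of the 35 genes. It was at 137.4, 134.5 and 128.9 in the control group and 165, 141.3 and 135.8 in the case group. The means were 133.6 ± 4.36 and 147.3 ± 15.5 with overlapping values (log2 fold change 0.14, 95% interval -0.07 to 0.35, adjusted p = 0.329). *PDIA6* overlapped as well (log2 fold change 0.08). The oxidases that pass disulfide bonds to the isomerases had values below 0. *ERO1A*, which is also a target of CHOP and of hypoxia, was at 12.96 ± 0.820 in the control and 12.07 ± 1.64 in the case libraries, and *ERO1B* was at 1.80 ± 0.162 and 1.59 ± 0.166 (SD, n = 3). Their adjusted p was 0.541 and 0.434. The prolyl isomerase *PPIB* (log2 fold change 0.20), *CRELD1* (-0.01) and *CRELD2* (0.07) overlapped between the groups. *MANF*, a small protein kept in the ER and secreted under stress, was at 24.6, 22.7 and 26.8 in the control group and 31.4, 25.4 and 30.7 in the case group (log2 fold change 0.24, adjusted p = 0.169). *MANF* was called higher without case replicate 2 (0.332, adjusted p = 0.0394), and with TPM its log2 fold change was 0.037.

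In ERAD, 1 of 8 genes was called by limma and 2 by voom, which added *SEL1L*, and proteins of the HRD1 ligase complex had values on either side of 0. *DERL1* (ENSG00000136986), a channel protein of the ER membrane, was at 5.21, 5.87 and 5.46 in the control group and 6.81, 7.29 and 7.58 in the case group. All case values were above the control values, by 0.38 on the log2 scale (standard error 0.09, adjusted p = 0.0337). Its call was lost with FPKM as deposited, with TPM, when low genes were kept and when limma was run without a trend. Its relative *DERL2* was 1.19-fold higher without overlap (adjusted p = 0.105), and *DERL3*, the least abundant gene of the group, was at 1.13 ± 0.122 and 1.14 ± 0.192 (SD, n = 3). *HERPUD1*, a membrane protein that organizes the retrotranslocation complex and holds ERSE-II in the stretch printed above, was at 11.1, 11.6 and 10.3 in the control group and 12.1, 13.6 and 13.7 in the case group. *HERPUD1* thus did not overlap, with a log2 fold change of 0.26 (95% interval 0.05 to 0.46, adjusted p = 0.0908). *HERPUD1* was called higher without case replicate 1 (0.315, adjusted p = 0.0348), and with TPM its log2 fold change was 0.057.

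*SEL1L* encodes the scaffold of the ubiquitin ligase HRD1. It was at 6.92, 7.42 and 7.27 in the control group and 4.17, 6.63 and 4.41 in the case group. It was lower in every case library, but case replicate 2 stood close to the control values (log2 fold change -0.53, 95% interval -0.91 to -0.14, adjusted p = 0.0711). *SEL1L* was called lower by voom (adjusted p = 0.0203), with TPM (0.0389), in a fit blocked on replicate number (0.0496) and without case replicate 2 (0.00598). The ligase itself, *SYVN1*, was at 6.52 ± 0.154 and 6.66 ± 0.481 (SD, n = 3) with a log2 fold change of 0.03. *EDEM1*, a mannosidase-like protein that marks glycoproteins for degradation and a usual target of spliced XBP1, was 0.856-fold of the control group without overlap (adjusted p = 0.128), and was called lower with TPM (log2 fold change -0.418, adjusted p = 0.0343). The related *EDEM2* had the opposite sign (log2 fold change 0.19, adjusted p = 0.172). *EDEM2* was called higher without case replicate 2 (0.264, adjusted p = 0.0313), and with TPM its log2 fold change was -0.011.

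Among the sensors and transcription factors, *XBP1* and *CREB3L2* were called, in opposite directions. *XBP1* (ENSG00000100219, chromosome 22, 28794555 to 28800597) had the largest increase of the 35 genes. Its scaled FPKM was 48.2, 46.6 and 51.1 in the control group and 80.5, 67.6 and 67.1 in the case group. The lowest case value was 67.1 and the highest control value 51.1, and the mean was 1.47-fold higher. In limma *XBP1* rose by 0.56 on the log2 scale (standard error 0.09, adjusted p = 0.015, rank 300 by p). It was called in 12 of 12 alternatives that kept all libraries, with log2 fold changes down to 0.36 with TPM, and in 2 of the 6 that left out 1 library. In the other 4 its adjusted p was between 0.0522 and 0.0834.

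*ATF6* was at 4.58, 4.84 and 4.08 in the control group and 4.74, 6.82 and 5.74 in the case group, with case replicate 1 inside the control range (log2 fold change 0.34, adjusted p = 0.140). It was called higher without case replicate 1 (0.475, adjusted p = 0.0374). Its log2 fold change was 0.213 without case replicate 2 and 0.144 with TPM. *ERN1*, which encodes the kinase and nuclease that splices *XBP1*, was at 2.22, 2.67 and 2.46 in the control group and 2.47, 3.36 and 2.64 in the case group (log2 fold change 0.19, adjusted p = 0.398). *CREB3L2* (ENSG00000182158, chromosome 7, 137874979 to 138002086) encodes an ATF6-like transcription factor of the ER membrane that drives genes of the secretory pathway. It was at 4.36, 4.51 and 4.41 in the control group and 2.07, 3.42 and 2.60 in the case group. All case values were below the control values, although they spread over 0.678 (SD) against 0.0760 in the control group. *CREB3L2* fell by 0.72 on the log2 scale (standard error 0.17, adjusted p = 0.032). It was not called when low genes were kept (adjusted p = 0.0904) or without the intensity trend (0.0607).

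*SEC24D* (ENSG00000150961, chromosome 4, 118722823 to 118838683), a cargo-binding coat protein of COPII vesicles that leave the ER, was at 3.02, 3.17 and 3.22 in the control group and 2.12, 2.23 and 2.37 in the case group. The groups did not overlap, and *SEC24D* fell by 0.47 on the log2 scale (standard error 0.10, adjusted p = 0.0284). Its call was lost when low genes were kept (adjusted p = 0.0655). *SEC61B*, a subunit of the channel through which proteins enter the ER, had a log2 fold change of 0.17 (adjusted p = 0.224) between 80.4 ± 4.81 in the control and 90.7 ± 8.39 in the case libraries (SD, n = 3).

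Genes with and without a stress element in the promoter window were also set side by side. The 12 genes with ERSE, ERSE-II or UPRE had a median log2 fold change of 0.07, from -0.32 (*HYOU1*) to 0.56 (*XBP1*), and 1 of them was called. The median of the 19 genes with a window but no match was 0.17, with 1 called higher (*ERP44*) and 1 lower (*CREB3L2*). No window was found for *PDIA3*, *DERL1*, *DERL3* and *SEC24D*, so the called genes *DERL1* and *SEC24D* are in neither set. These medians were not compared by a test.

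Other genes of the ER were examined in 4 further lists. Their limma counts stand beside the same 7.34% of all tested genes called higher and 5.84% lower. Voom called 10.4% of all tested genes higher and 10.4% lower, and 16.2% were lower at an unadjusted p under 0.05. Of 34 other folding genes tested, 5 were called higher and 0 lower by limma (voom called 6 and 1), with 3 lower at an unadjusted p under 0.05 and a median log2 fold change of 0.14. The higher genes were led by *TXNDC12*, a thioredoxin of the ER, which rose from 26.1 to 40.6 (log2 fold change 0.63, adjusted p = 0.00477), *SDF2*, the constitutive relative of *SDF2L1* (0.56, adjusted p = 0.00937), and *TMX2* (0.52, adjusted p = 0.0204). Of 40 other ERAD genes, 4 were higher and 0 lower by limma (voom called 5 and 2), with 5 lower at an unadjusted p under 0.05. *SELENOS*, a selenoprotein that binds the derlins, rose from 12.2 to 19.2 (log2 fold change 0.65, adjusted p = 0.0137), followed by *UBXN8* (0.54) and *RNF139* (0.38). Of 49 genes of the translocon, of N-glycosylation and of COPII, 9 were higher and 2 lower by limma (voom called 13 and 5). *SEC61G* (0.56), *RPN2* (0.45) and *STT3A* (0.42) led the higher genes. *SEC24C*, another cargo adaptor of the same coat as *SEC24D*, fell from 13.8 to 7.06 (log2 fold change -0.97, adjusted p = 0.00864), and *SEC16A*, which marks the sites where the coat forms, had a log2 fold change of -0.45 (adjusted p = 0.0417). Of 19 other genes of unfolded protein response signalling, *BFAR* was higher (0.41, adjusted p = 0.0233) and *WFS1* was lower (-0.42, adjusted p = 0.0309). *WFS1* encodes wolframin, an ER membrane protein often raised by ER stress. The counts changed with the scaling and with single libraries, as did those of all genes. With TPM, where 2.82% of all tested genes were called higher and 17.6% lower, the folding list gave 3 higher and 2 lower, the ERAD list 1 and 7, the translocon and COPII list 0 and 13, and the signalling list 0 and 4. With quantile normalization the translocon and COPII list gave 3 and 2, against 6.42% and 6.58% of all tested genes. With the replicate block the ERAD list gave 2 and 2, against 6.24% and 5.6%. Without control replicate 1, 2 or 3 or without case replicate 3, no gene of the last 3 lists was called higher, and 1 or 2 folding genes were. Those settings called 0.412% to 0.838% of all tested genes higher. Without case replicate 2 the folding list gave 8 higher and 2 lower, the ERAD list 8 and 6, the translocon and COPII list 14 and 7, and the signalling list 3 and 1. All tested genes then stood at 13.3% and 12.3%. With the GC correction described below the lists gave 9 and 1, 10 and 3, 14 and 8, and 3 and 2, against 13% and 10.9%.

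**Figure D3:**
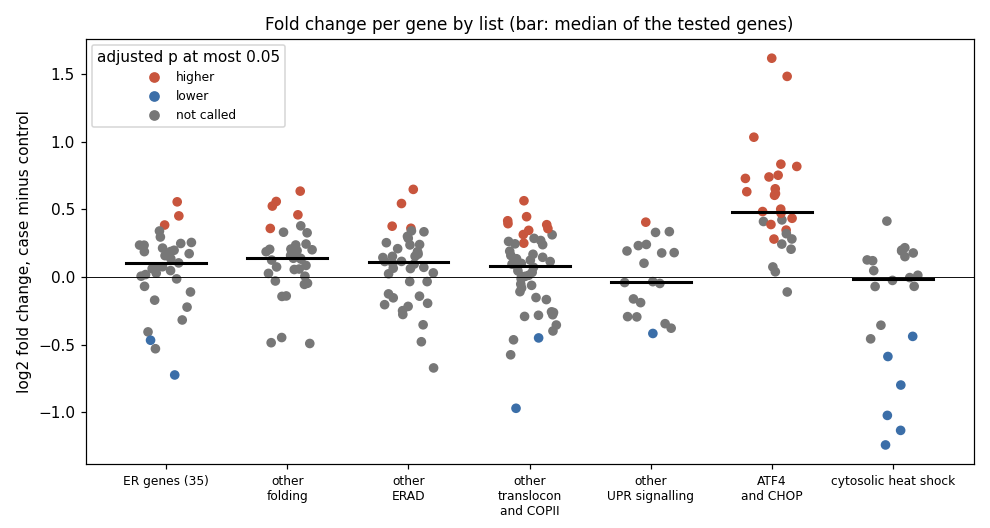
Log2 fold change (case minus control, y axis) of each tested gene in 7 lists, with red for genes called higher, blue for genes called lower and a black bar for the median. The median is 0.10 in the 35 ER genes and 0.48 in the ATF4 and CHOP list, where 19 of 28 genes are called higher.

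In the main analysis the ATF4 and CHOP branch, beside which the ER genes were set, was called in most of its genes. Of 28 tested genes, 19 rose and 0 fell by limma, against 7.34% and 5.84% of all tested genes. Voom called 20 higher and 0 lower, against 10.4% and 10.4%. At an unadjusted p under 0.05, 0 were lower, against 16.2%. The count called higher was 12 when low genes were kept (against 1.18%) and 13 without a trend (3.18%). It was 14 with quantile normalization (6.42%) and 15 with TPM (2.82%). The median log2 fold change was 0.48. Between 7 and 10 were called without each control replicate or without case replicate 3, where at most 0.838% of all tested genes were called higher. This list holds genes that the study itself named from these libraries, so its count is not independent evidence of a direction. *DDIT3*, which encodes CHOP, was at 14.3, 11.4 and 11.6 in the control group and 37.8, 34.0 and 42.9 in the case group (log2 fold change 1.62, adjusted p = 0.00152). *PPP1R15A*, the phosphatase subunit that reverses eIF2 phosphorylation, had a log2 fold change of 1.48 and *TRIB3* had 1.03. *ATF4* itself was at 300.4, 286.4 and 288.2 in the control group and 391.5, 345.5 and 377.0 in the case group (log2 fold change 0.35, adjusted p = 0.0296). The call of *ATF4* was lost with TPM (0.147, adjusted p = 0.0788), with quantile normalization (0.112, adjusted p = 0.139), when low genes were kept (adjusted p = 0.109), without a trend (0.0633) and without any control replicate or case replicate 3 (0.101 to 0.149). The PERK gene *EIF2AK3*, which is outside the ATF4 and CHOP list, was low. It was at 0.927, 0.989 and 0.853 in the control group and 0.563, 0.879 and 0.649 in the case group. It was not called (log2 fold change -0.378, adjusted p = 0.282). Phosphorylation of PERK or eIF2 was not measured in these files. *ERO1A* belongs to the ATF4 and CHOP list too and was its only gene with a value below 0. All of these values come from the same 6 libraries.

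Cytosolic heat shock genes were examined beside those of the ER. Of 22 cytosolic heat shock genes, 6 were lower and 0 higher by limma, against 5.84% and 7.34% of all tested genes. Voom called 8 lower and 0 higher, against 10.4% and 10.4%. At an unadjusted p under 0.05, 1 was higher, against 16.8%. *HSPA8*, the constitutive cytosolic relative of *HSPA5*, was at 269.3, 271.7 and 259.8 in the control group and 123.7, 114.5 and 127.2 in the case group (log2 fold change -1.13, adjusted p = 0.00152). *HSPA2* and *HSPA1B* had log2 fold changes of -1.24 and -1.02. With the correction for GC content described next 3 genes of this list were called higher, against 13% of all tested genes. Without case replicate 1 there were 4, against 9.02%. The count of lower genes was 3 or 4 without a control replicate or case replicate 3, against 0.118% to 0.5% of all tested genes. It was 9 with quantile normalization, against 6.58%, and 10 with TPM, against 17.6%. The study also named *HSPA8*, *HSPA2* and *HSPA1B* from these libraries, so their direction in these libraries is not independent evidence. For all of them the paper also reports qRT-PCR on cells cultured and treated anew, with lower levels after TEPP-46. Its western blots of the proteins went in the same direction.

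The case libraries differed among themselves more than the control libraries, and this spread ran with base composition. On the log2 scale the median SD of the 35 genes was 0.07 among control and 0.15 among case libraries, beside 0.09 and 0.19 for all tested genes. Case replicate 1 was the highest of the 6 libraries in 11 of the 35 genes (31.4%) and the lowest in 10 (28.6%), near the 25.6% and 26.6% of all tested genes. In 12 genes case replicate 1 was above the mean of the other 2 case replicates, and the longest annotated transcripts of these had a median GC content of 54.5% (41.5% to 65.1%). In the remaining 23 genes it was below, and the median was 41.2% (34.3% to 54.3%). *SDF2L1*, *CRELD2* and *CALR* were on the high side and *DNAJC3*, *HSP90B1* and *SEL1L* on the low side, with *XBP1* (41.5%) the exception among the GC-poor genes. Across the 35 genes Pearson's r between GC content and this difference was 0.70 and Spearman's rho was 0.61. Across 13489 tested genes r was 0.40 and rho was 0.61. Genes share the same libraries and are not independent replicates. Between GC content and the log2 fold change itself, r was -0.01 across the 35 genes. Base composition was not the only difference among the case libraries. In the paper's read statistics, case replicate 1 had a smaller share of reads in introns than the other 2 case replicates. Case replicate 1 and control replicate 3 had larger shares of reads with adapter than the other libraries. The part of these differences in the spread was not tested.

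**Figure D4:**
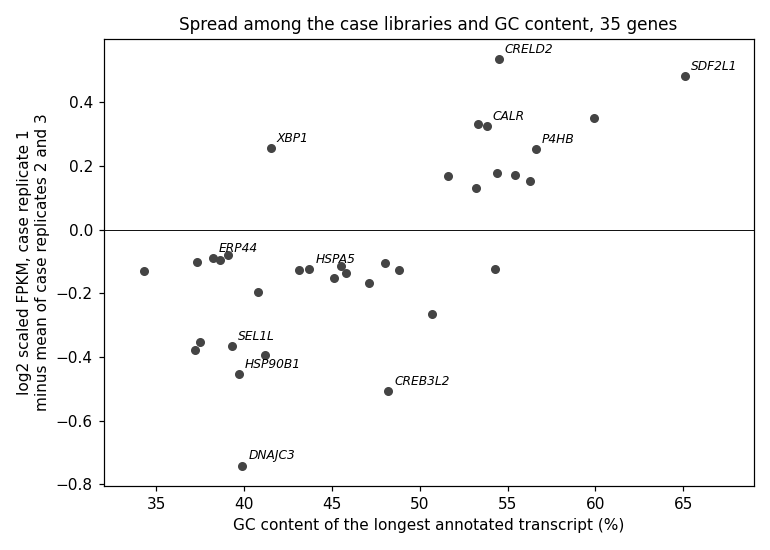
Difference between case replicate 1 and the mean of case replicates 2 and 3 (y axis, log2 scaled FPKM) against the GC content of the longest annotated transcript (x axis, percent) for the 35 genes, each a point. Genes rich in GC lie mostly above 0 and genes poor in GC mostly below it.

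When the smooth relation with GC content was removed from each library, 6 of the 35 genes were called higher and 5 lower, against 13% and 10.9% of all tested genes. This correction was added after the values were known. *HSPA5* (log2 fold change 0.22, adjusted p = 0.0253), *HERPUD1* (0.23, adjusted p = 0.0493) and *ATF6* (0.36, adjusted p = 0.0415) were then called higher. *SEL1L* (-0.47, adjusted p = 0.0383), *HYOU1* (-0.32, adjusted p = 0.042) and *EDEM1* (-0.24, adjusted p = 0.039) were called lower. For these 6 genes, named because their calls changed, the standard errors were smaller than before. That of *XBP1*, which was still called higher, rose from 0.093 to 0.127 (adjusted p = 0.0201). *HSP90B1*, *CALR*, *SDF2L1*, *DNAJB9* and *ERN1* were not called in this setting.

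Markers of the labelled cell type were checked. The keratin genes *KRT8*, *KRT18* and *KRT19* were at 157.2 to 409.5 scaled FPKM in every library. Of 12 listed markers of the differentiated proximal tubule, 9 were found in the table and summed to 0.466 to 0.634 per library. Of these, *LRP2*, the gene of megalin, was listed at 0 in 5 of 6 libraries. For fibroblasts, endothelium and leukocytes, 3 of 6, 4 of 4 and 3 of 5 listed markers were found in the table. They summed to at most 0.400, 0.0944 and 0.920, and *CD14* was the most abundant of them. *CD14* was lower in the case group (0.785 against 0.272, adjusted p = 0.0385). Of 5 epithelial markers, *CDH1* was lower (3.33 against 2.102, log2 fold change -0.64, adjusted p = 0.0156), and *KRT8* (-0.27), *KRT18* (0.02), *KRT19* (0.02) and *EPCAM* (0.04) were not called. Genes of the mitochondrial genome made up 11.2% to 11.3% of all FPKM in control libraries and 13.2% to 14.7% in case libraries. The part of these differences in the values of the ER genes was not tested.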

How the data were processed

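Values were FPKM of 29483 genes in 6 libraries of HK-2 cells. Per the labels and the paper's methods, quality-filtered reads were aligned with HISAT2 2.1.0 (genome GRCh38.p13) and counted per gene with HTSeq 0.6.0, and the authors deposited the FPKM made from these counts. The version of the annotation and the strandedness are not given in the sources used here. The FPKM steps gave the library sizes and whole reads per gene for all 27922 genes above 0, within 0.02 of a read and up to a common divisor.

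Libraries were scaled by median-of-ratios factors between 0.939 and 1.03. After addition of 0.1, log2 values of the 13599 genes whose mean FPKM reached 0.5 were fitted with limma 3.58.1 in R 4.3.3 with an intensity trend and no covariate. P-values were adjusted over all tested genes by the Benjamini-Hochberg method, with the threshold at 0.05. The design and rule for named genes were set with earlier results of these data known, as were the gene lists and the 35 genes. Every one of the 35 is accounted for. Those called, 8 fixed genes and the 3 most abundant are given in full, and from other lists the called genes with the largest changes, at most 3 in each direction. *DDIT3*, *PPP1R15A*, *ATF4*, *EIF2AK3* and *HSPA8* were fixed as well. Other genes are named to complete the group. Symbols matched 29063 identifiers, and positions are of a GRCh38 annotation. The fit was tested on simulated data, and no result given here rests on that test. Pseudocounts of 1 and 0.01, no filter, a filter at a mean FPKM of 1, unscaled FPKM, TPM, quantile normalization, no trend, robust estimation, a replicate block, voom on recovered reads and leaving out each library were the alternatives, and the GC correction was added after the data had been seen.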

Additional observations from a re-analysis of the deposited data

How the results depend on the processing

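*XBP1*, *ERP44*, *DERL1*, *CREB3L2* and *SEC24D* kept their direction under every alternative run here. The group gave 3 genes called higher and 2 lower in the main analysis. With TPM there were 1 and 5, with the GC correction 6 and 5, with no filter on low values 2 and 0 (against 1.18% and 0.684% of all tested genes), and without the intensity trend 2 and 1 (against 3.18% and 3.04%). Leaving out 1 library gave 0 to 6 higher and 0 to 4 lower. Over all tested genes, 998 were called higher and 794 lower in the main analysis, 662 and 1124 with FPKM as deposited and 383 and 2387 with TPM. TPM moved the median log2 fold change of all tested genes to -0.19, and relative to that median 25 of the 35 genes were again above it, while with quantile normalization 20 were above the median of all genes. Voom on recovered reads called 1415 and 1417 genes, 4 and 3 of them in the group. Of the genes given in full, 6 changed sign, and none of these 6 was called where its value was below 0. These were *CALR* (-0.029 with FPKM as deposited, -0.152 with TPM, -0.187 with quantile normalization, and -0.057 to 0.11 leaving out 1 library), *HSP90B1* (-0.015, -0.138 and -0.107 in the same 3 settings, and -0.076 to 0.217), *SDF2L1* (-0.058, -0.181 and -0.12, and -0.138 to 0.138), *P4HB* (-0.063 with TPM, -0.09 with quantile normalization), *ERN1* (-0.004 with TPM) and *HSPA5* (-0.002 with quantile normalization). Negative values came without case replicate 1 (*CALR*, -0.057, and *SDF2L1*, -0.138), without case replicate 3 (*HSP90B1*, -0.076) and without control replicate 2 (*SDF2L1*, -0.059). The cause was not tested.

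With the replicate number as a block, 3 genes were higher and 3 lower (against 6.24% and 5.6% of all tested genes), the addition being *SEL1L*. Deviations of same-numbered libraries correlated at 0.06, 0.10 and -0.05 over genes. Those of differently numbered libraries lay between -0.182 (control replicate 2 with case replicate 1) and 0.117 (control replicate 3 with case replicate 1). The numbers were therefore not taken to pair the libraries. An exact permutation test of 3 against 3 cannot go below p = 0.1.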
